A study of Drosophila melanogaster with 9 samples.

Results

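The comparison set 3 small RNA libraries of adult midguts at Pe day 0 beside 3 libraries of mock midguts, which are 6 of the 9 samples of the series. Every fly was Drosophila melanogaster, wild-type strain Oregon-R, 4 to 5 days old. The Pe group received a treatment that the labels write as Pe and do not spell out, and the mock group received sucrose. The series concerns how regeneration of the fly midgut begins and ends, and these samples are its first stage. The remaining 3 libraries, Pe day 3 midguts of flies 7 to 8 days old, entered the model for its estimate of spread and are not described here. Nothing in the labels says that the replicates were separate cultures or dissections, so each p-value is set against a spread among libraries that may be technical alone. The table lists 467 miRNAs, 138 of them above 0 in these 6 libraries, and the 73 that reached 20.1 RPM, reads scaled to 1000000 miRNA reads per library, in at least 3 libraries of the series were tested.

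A miRNA is cut from a hairpin in a primary transcript, and either arm of the hairpin, named 5p or 3p, can be loaded into an Argonaute protein and guide it to messenger RNAs. In most hairpins 1 arm accumulates and the other is largely degraded. Hairpins that lie close together are often cut from a shared transcript, and copies with the same guide sequence can act on the same targets. The adult fly midgut is an epithelium of absorptive enterocytes and hormone-secreting enteroendocrine cells, renewed by intestinal stem cells that divide faster when the epithelium is damaged.

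The Pe day 0 libraries held 809842, 296702 and 1238105 miRNA reads, and the mock libraries 707747, 363095 and 497997. Levels below are scaled RPM, the deposited RPM divided by a factor for each library. The factor comes from the trimmed mean of M values (TMM) and is meant to align most miRNAs between libraries. A listed 0 may stand for 1 read, since 2 reads was the lowest value listed. The adult midgut list of 6 miRNAs, which includes miR-956-3p, miR-263a-5p and miR-281-2-5p, was detected in full and summed to 804983 to 846116 RPM at Pe day 0 and 790589 to 826797 RPM in mock midguts. Most of this was miR-956-3p, at 743682 to 801876 RPM at Pe day 0 and 722808 to 785144 RPM in mock midguts. The sum therefore hides changes of scarcer members, such as miR-281-2-5p. The list was chosen with earlier results of these data known, so its detection is no independent check. Muscle miRNAs summed to 64.2 to 140 RPM at Pe day 0 and 76.3 to 110 RPM in mock midguts, with miR-1-3p giving nearly all of it. The 4 neuronal miRNAs summed to 122 to 152 RPM at Pe day 0 and 70.6 to 127 RPM in mock midguts. This was miR-190-5p apart from 2 reads, and the defining miR-124-3p was listed at 0 throughout. The 12 testis miRNAs were listed at 0 in every library. The 8 ovary and early embryo miRNAs summed to 28.4, 0 and 137 RPM at Pe day 0, against 14.1, 44.1 and 0 RPM in mock midguts. The high value belongs to Pe replicate 3, where miR-989-3p had 96 reads and was listed at 0 in the other 5 libraries. In these bulk samples fewer cells of a type and less RNA per cell cannot be told apart.

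miR-10404-5p and miR-34-3p rose and miR-281-2-5p fell at Pe day 0. These 3 of 73 miRNAs, or 4.11%, passed a Benjamini-Hochberg adjusted p under 0.05 in limma, a linear model of log2(scaled RPM + 4.02) over all 9 libraries. The 2 higher calls make 2.74% of the miRNAs tested and the 1 lower call 1.37%. An unadjusted p under 0.05 was reached by 20 miRNAs. Scaling by median of ratios gave 1 higher and 1 lower call, without miR-34-3p, so the split of the calls rests on the scaling. The median change of the 73 miRNAs was 0.17 on the log2 scale, and -0.02 with median-of-ratios scaling. Medians and counts of classes, arms and families below are therefore also set against that median. Single changes and calls are relative to 0.

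miR-281-2-5p comes from 1 of 2 neighbouring hairpin copies within an intron of Oda on chromosome 2R, and in mosquitoes miR-281 is known as a midgut miRNA. It had 813, 401 and 791 scaled RPM at Pe day 0, against 1771, 1332 and 1009 scaled RPM in mock midguts. Every Pe library lay below every mock library, with Pe replicate 2 the lowest. The mean was 668 ± 231 at Pe day 0 and 1371 ± 382 in mock midguts (SD, n = 3 each), and the log2 change was -1.06 ± 0.27 (SE, limma adjusted p = 0.021). The authors' deposited table gave -1.22 with an adjusted p of 0.0027 for the same contrast.

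miR-34-3p is the less abundant arm of miR-34, a miRNA known in flies for its part in brain ageing. Its values were 1064, 1299 and 1186 scaled RPM at Pe day 0, against 511, 731 and 775 scaled RPM in mock midguts. The Pe libraries stood close together above the mock range. Its log2 change was 0.83 ± 0.23 (SE, limma adjusted p = 0.029), or 1.78-fold. The authors' deposited table gave 0.62, with an adjusted p of 0.055. No other scaling kept the call of miR-34-3p. Its limma adjusted p was 0.089 with median-of-ratios scaling and 0.16 with RPM as deposited. With scaling by the total without the 5 most abundant miRNAs the limma adjusted p was 0.15.

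miR-10404-5p is scarce, and its hairpin has 5 annotated copies, of which 2 lie within precursor ribosomal RNA genes and 3 on chromosome X, so its reads cannot be assigned to a copy. It had 32.9, 92.6 and 30.96 scaled RPM at Pe day 0, against 11.3, 10.02 and 8.43 scaled RPM in mock midguts. The groups did not overlap, and Pe replicate 2 was nearly 3 times as high as the other Pe libraries. These levels rest on 23, 27 and 41 reads at Pe day 0 and on 6, 4 and 4 reads in mock midguts. No mock library reached the 20.1 RPM of the filter, so miR-10404-5p was tested only because its Pe libraries were high. The log2 change was 1.85 ± 0.44 (SE, limma adjusted p = 0.015), and without Pe replicate 2 it was 1.37 with an adjusted p of 0.067. The authors' deposited table gave 2.15, with an adjusted p of 0.056.

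The calls depended on the libraries in the model. With the replicate number as a block, since replicates with the same number deviated together, miR-10404-5p alone kept its call among the 73 miRNAs (adjusted p = 0.046), and miR-34-3p and miR-281-2-5p each had an adjusted p of 0.06. A model of only the 6 libraries called 11 miRNAs, or 15.1%, of which 9 were higher, and the block within that model gave 10 higher and 1 lower. With scaling factors from those 6 libraries alone, 1 higher and 2 lower were called, which were miR-10404-5p, miR-281-2-5p and miR-281-1-5p, and miR-34-3p lost its call (log2 change 0.65, limma adjusted p = 0.058). The 2 models of the 6 libraries that kept the factors from all 9 held all 3 calls above and shared miR-8-5p, miR-34-5p, miR-13b-3p, miR-1012-3p, miR-184-5p and miR-317-3p. Without Pe replicate 2 no miRNA was called by limma, with 19 at an unadjusted p under 0.05. Without Pe replicate 3, the library with the miR-989-3p reads, 5 were called, and these were the 3 above with miR-34-5p and miR-958-3p. There was 1 call without mock replicate 1, and 8, 0 and 10 calls without Pe day 3 replicates 1, 2 and 3. With TMM over all 9 libraries, miR-34-3p also lost its call without Pe replicate 1 (adjusted p = 0.051) and miR-281-2-5p without mock replicate 2 (adjusted p = 0.06).

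The groups did not overlap for 24 of the 73 miRNAs, or 32.9%. In 16 of them, or 21.9%, every Pe library was above every mock library, and in 8, or 11%, every Pe library was below. The 8 that lay below were miR-281-2-5p, miR-281-1-5p, miR-375-5p, miR-184-3p, miR-958-5p, miR-8-3p, miR-375-3p and miR-2b-3p. The separation depends on the scaling. With RPM as deposited, 17 lay above and 4 below, and miR-958-5p, miR-8-3p, miR-375-3p and miR-2b-3p overlapped, as did miR-317-3p, miR-14-3p, miR-996-5p and miR-988-3p among those above. With median-of-ratios scaling 12 lay above and 12 below. Under all 5 scalings tried, 9 lay above (miR-10404-5p, miR-184-5p, miR-1012-3p, miR-8-5p, miR-34-3p, miR-13b-3p, miR-263a-3p and both arms of miR-275) and 4 below (miR-281-2-5p, miR-281-1-5p, miR-375-5p and miR-184-3p). Overlap elsewhere in the text refers to TMM scaling unless another is named. miR-2b-3p had 1127, 1035 and 1177 scaled RPM at Pe day 0, against 1207, 1190 and 1205 in mock midguts, a log2 change of -0.11 ± 0.24 (SE).

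**Figure D1:**
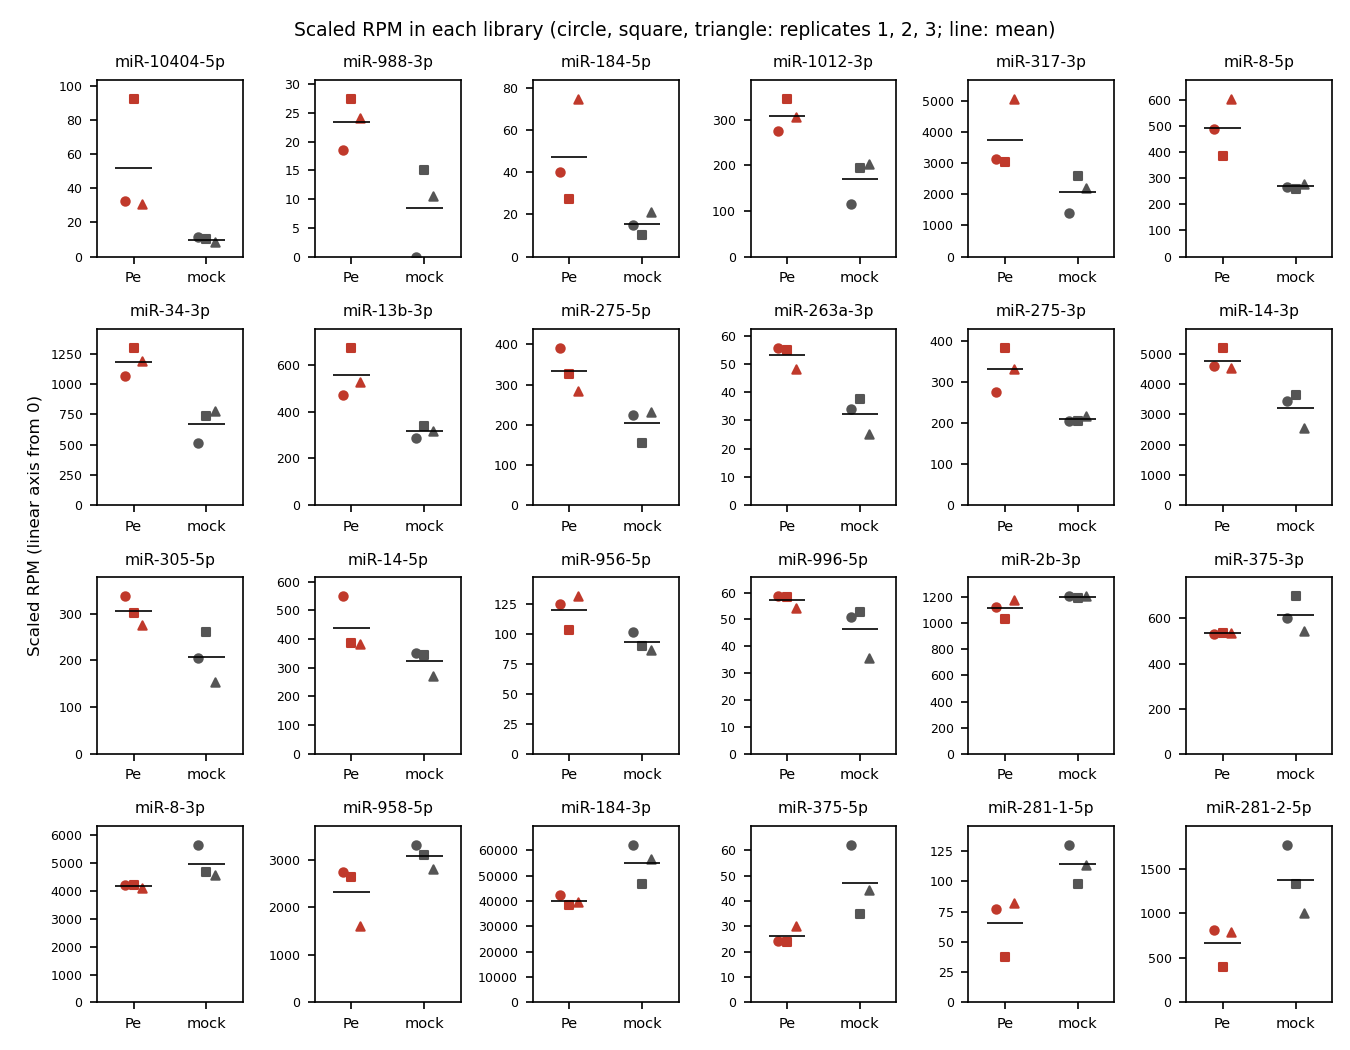
Scaled RPM (linear axes from 0) of the 24 miRNAs whose Pe day 0 and mock libraries did not overlap, ordered by log2 change. Each point is 1 library and each line a group mean. miR-10404-5p has 1 Pe library, replicate 2, at 92.6 and the others at 30.96 and 32.9, and miR-281-2-5p, last in the order, sits at 401 to 813 at Pe day 0 and at 1009 to 1771 in mock midguts.

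By abundance, the class medians of the changes were lower in the more abundant classes. Classes were set by the mean deposited RPM over the 6 libraries. The 4 miRNAs with at least 10000 RPM had a median log2 change of -0.29, which is 0.45 below the median of all 73, and none of them lay above that median. The 13 miRNAs between 1000 and 10000 RPM had a median of -0.06, with 5 above the median of all. The 27 between 100 and 1000 RPM had a median of 0.17, with 14 above the median of all, and the 29 tested miRNAs under 100 RPM had a median of 0.29, with 17 above it. The filter could be passed through Pe libraries alone, so this last class can hold miRNAs that entered because they were high there. In mock midguts miR-10404-5p (8.48, 11.0 and 8.03 RPM as deposited), miR-988-3p (0, 16.5 and 10.04) and miR-308-5p (7.06, 13.8 and 16.1) never reached 20.1 RPM. With median-of-ratios scaling the 4 classes stood at -0.47, -0.25, -0.01 and 0.12, and with RPM as deposited at -0.22, 0.01, 0.24 and 0.36. A change of scaling shifts all miRNAs by nearly the same amount, so the unchanged order of the classes is no check of it. Calls were 0 in each of the top 2 classes, 1 higher and 1 lower between 100 and 1000 RPM, and 1 higher under 100 RPM. Groups without overlap made up 25% of the top class and 38.5%, 40.7% and 24.1% of the others in falling order of abundance, beside 32.9% of all.

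miR-956-3p, the dominant miRNA of these libraries, had 928981, 756402 and 739759 scaled RPM at Pe day 0, against 1048078, 669086 and 758521 in mock midguts. The groups overlapped fully. Its log2 change was -0.01 ± 0.22 (SE), with a 95% confidence interval of -0.46 to 0.44, and was 0.06 with RPM as deposited. A miRNA that takes most of a library bears on every other RPM value in it. miR-956-3p made up 77.9% of reads at Pe day 0 and 74.8% in mock midguts on average.

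miR-184-3p, known in flies for its part in female germline development, was the 1 miRNA of the top class whose groups separated. It had 42248, 38253 and 39726 scaled RPM at Pe day 0, against 62191, 46822 and 56580 scaled RPM in mock midguts. The Pe libraries were closely grouped, with an SD of 2020 around a mean of 40076, and the mock libraries had an SD of 7777 around 55198 (n = 3 each). The log2 change was -0.45 ± 0.20 (SE, limma adjusted p = 0.16). The authors' deposited table gave it -0.65 with an adjusted p of 0.0018, and it was 1 of 2 miRNAs that table called among the 61 with an adjusted p there, both lower.

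miR-10-5p, whose hairpin lies in the Antennapedia Hox cluster (3R:6809506-6809582, minus strand, Ensembl BDGP6), had 87652, 109402 and 63859 scaled RPM at Pe day 0, against 126494, 96758 and 122740 in mock midguts. Its libraries overlapped through Pe replicate 2 and mock replicate 2, and its log2 change was -0.43 ± 0.22 (SE, limma adjusted p = 0.19). miR-263a-5p, known to limit epithelial sodium channel subunits in the fly gut, had a log2 change of -0.14 ± 0.21 (SE) and miR-31a-5p of -0.10 ± 0.21 (SE), with overlapping groups in both.

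As shares of reads the classes shifted little. The top class made up 94.2% ± 0.57 of reads at Pe day 0 and 94.7% ± 1.004 in mock midguts (SD, n = 3 each). The class between 1000 and 10000 RPM made up 4.43% ± 0.41 at Pe day 0 and 4.08% ± 0.74 in mock midguts, and that between 100 and 1000 RPM 1.18% ± 0.15 at Pe day 0 and 1.04% ± 0.24 in mock midguts. Tested miRNAs under 100 RPM made up 0.147% ± 0.026 at Pe day 0 and 0.116% ± 0.025 in mock midguts. The first 3 differences were smaller than the SD of the mock group, and the last was slightly larger than either SD.

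**Figure D2:**
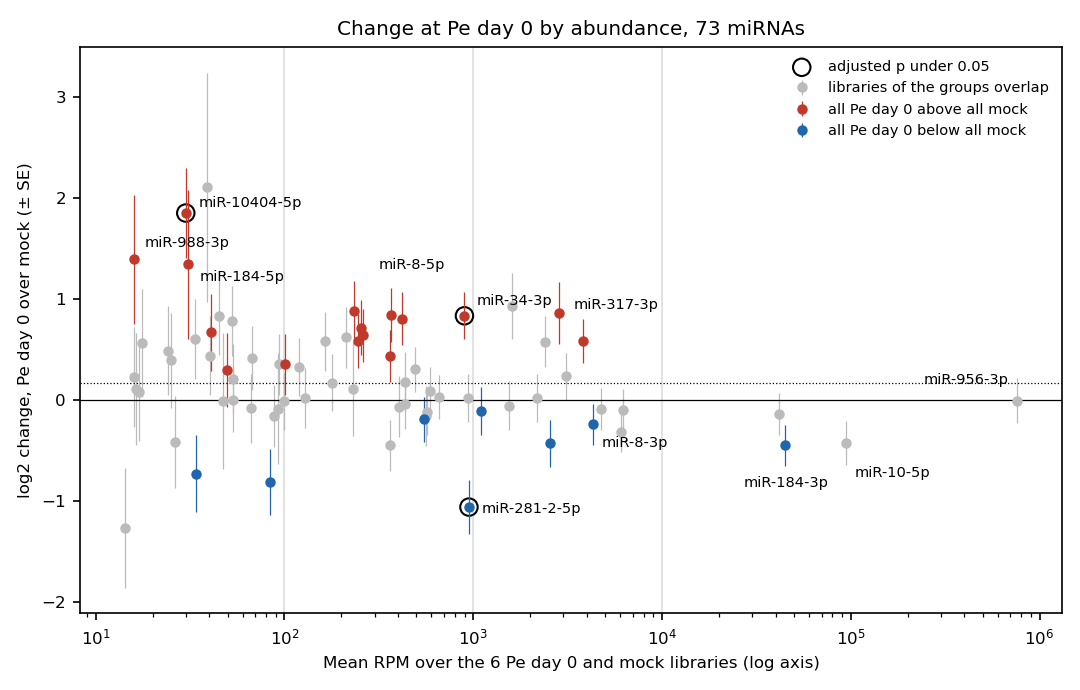
Log2 change of the 73 tested miRNAs (Pe day 0 over mock, bars ± SE) against mean RPM over the 6 libraries (log axis). Grey lines part the abundance classes, the dotted line is the median of all at 0.17, and colours mark miRNAs whose groups did not overlap. All 4 miRNAs beyond 10000 RPM lie below the dotted line, and the largest changes with the widest bars are under 100 RPM.

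By arm, 5p and 3p miRNAs did not stand apart. The 39 tested 5p miRNAs had a median log2 change of 0.20 with 12 free of overlap, or 30.8%, and the 34 tested 3p miRNAs a median of 0.14 with 12, or 35.3%. Both arms were tested for 21 hairpins, so that the arms could be compared within each library. The less abundant arms had a median change of 0.43, and 14 of 21 lay above the median of all 73. A scarce minor arm could pass the filter through Pe libraries, such as miR-184-5p, with 11.3, 11.0 and 20.1 RPM as deposited in mock midguts. The more abundant arms had a median of 0.03, with 10 of 21 above it. Within a hairpin the less abundant arm had the higher change in 11 and the lower in 10. Among the 11 hairpins whose minor arm took under 10% of the reads, it was higher in 7.

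The ratio of 5p to 3p reads was tested as a log2 ratio with the same limma model. It was called in 0 of 21 hairpins, or 0%, with 4 at an unadjusted p under 0.05, and the groups did not overlap in 6, or 28.6%. The 4 with the smallest p were miR-8, miR-958, miR-1012 and miR-184. A model of only the 6 libraries called 6 hairpins, which were these 4 with miR-277 and miR-988, and the replicate block within it called 6, with miR-308 in place of miR-1012.

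miR-8 is the fly member of the miR-200 family and is known in the fat body for its effect on insulin signalling. Its minor arm, miR-8-5p, had 489, 384 and 605 scaled RPM at Pe day 0, against 268, 260 and 280 in mock midguts. Its major arm, miR-8-3p, had 4212, 4230 and 4098 scaled RPM at Pe day 0, against 5666, 4691 and 4573 in mock midguts. All Pe libraries were above for 5p and below for 3p, but with RPM as deposited the 3p groups overlapped, and the limma adjusted p was 0.061 for 5p and 0.52 for 3p. The share of 5p among the reads of the hairpin was 10.4%, 8.32% and 12.9% at Pe day 0, against 4.51%, 5.26% and 5.78% in mock midguts. The log2 ratio of 5p to 3p was higher by 1.08 ± 0.34 (SE, limma adjusted p = 0.06), and the model of the 6 libraries gave an adjusted p of 0.011. Of 17 alternatives, 5 called this ratio, and the limma adjusted p was as high as 0.20 among them all.

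miR-958, known in flies as a regulator of Toll signalling, gave nearly equal reads from its arms (3L:22669289-22669380, minus strand, Ensembl BDGP6). miR-958-5p had 2744, 2640 and 1611 scaled RPM at Pe day 0, against 3318, 3100 and 2801 in mock midguts. miR-958-3p had 2731, 4141 and 2296 scaled RPM at Pe day 0, against 2433, 2039 and 1580 in mock midguts. The 5p groups did not overlap and the 3p groups did, through Pe replicate 3. With RPM as deposited this was the other way round. The 5p arm gave 50.1%, 38.9% and 41.2% of the reads of the hairpin at Pe day 0, against 57.7%, 60.3% and 63.9% in mock midguts. The log2 ratio of 5p to 3p differed from mock by -1.01 ± 0.36 (SE, limma adjusted p = 0.091), and the arm with more reads was 5p in mock midguts and 3p in Pe replicates 2 and 3.

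miR-1012 is a mirtron, a hairpin made by splicing a short intron, here of Lerp, the lysosomal enzyme receptor gene (3R:26861349-26861407, minus strand, Ensembl BDGP6). miR-1012-3p had 276.1, 346 and 305.8 scaled RPM at Pe day 0, against 115.05, 195 and 202 in mock midguts, a log2 change of 0.88 ± 0.30 (SE, limma adjusted p = 0.066). Its groups were well apart. miR-1012-5p had 126, 120 and 146 scaled RPM at Pe day 0, against 98.1, 190 and 114 in mock midguts, a log2 change of 0.02 ± 0.30 (SE) that was -0.17 with median-of-ratios scaling. The log2 ratio of 5p to 3p differed from mock by -0.86 ± 0.34 (SE, limma adjusted p = 0.11). Of the other 4 mirtrons in the list, 3 had a listed arm and none reached the filter.

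The minor arm of miR-184, miR-184-5p, had 40.1, 27.4 and 74.8 scaled RPM at Pe day 0, against 15.1, 10.02 and 21.1 in mock midguts, while miR-184-3p was lower as given above. These 5p levels rest on 28, 8 and 99 reads at Pe day 0 and on 8, 4 and 10 reads in mock midguts. The 5p arm made up 0.095%, 0.072% and 0.188% of the reads of the hairpin at Pe day 0, against 0.024%, 0.021% and 0.037% in mock midguts. The log2 ratio was higher by 1.78 ± 0.74 (SE, limma adjusted p = 0.12). The minor arm miR-263a-3p likewise lay above, at 55.8, 54.8 and 48.3 scaled RPM at Pe day 0, against 33.9, 37.6 and 25.3 in mock midguts. miR-988-3p had 18.6, 27.4 and 24.2 scaled RPM at Pe day 0, against 0, 15.03 and 10.5 in mock midguts, with miR-988-5p at 0.22 ± 0.49 (SE) on the log2 scale. The miR-988-3p levels rest on 13, 8 and 32 reads at Pe day 0 and on 0, 6 and 5 reads in mock midguts.

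Both arms of miR-34, miR-275, miR-14 and miR-996 had changes above 0 that differed within a hairpin by at most 0.15 on the log2 scale. Both arms of miR-10, at -0.43 ± 0.22 and -0.32 ± 0.21 (SE), bantam, at -0.10 ± 0.21 for 3p and -0.45 ± 0.25 for 5p, and miR-375, at -0.20 ± 0.22 for 3p and -0.73 ± 0.38 for 5p, had changes below 0. miR-375-5p had 24.3, 24.0 and 30.2 scaled RPM at Pe day 0, against 62.2, 35.1 and 44.3 in mock midguts, without overlap (limma adjusted p = 0.2). These levels rest on 17, 7 and 40 reads at Pe day 0 and on 33, 14 and 21 reads in mock midguts. miR-375 is known in mammals as a miRNA of endocrine cells.

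**Figure D3:**
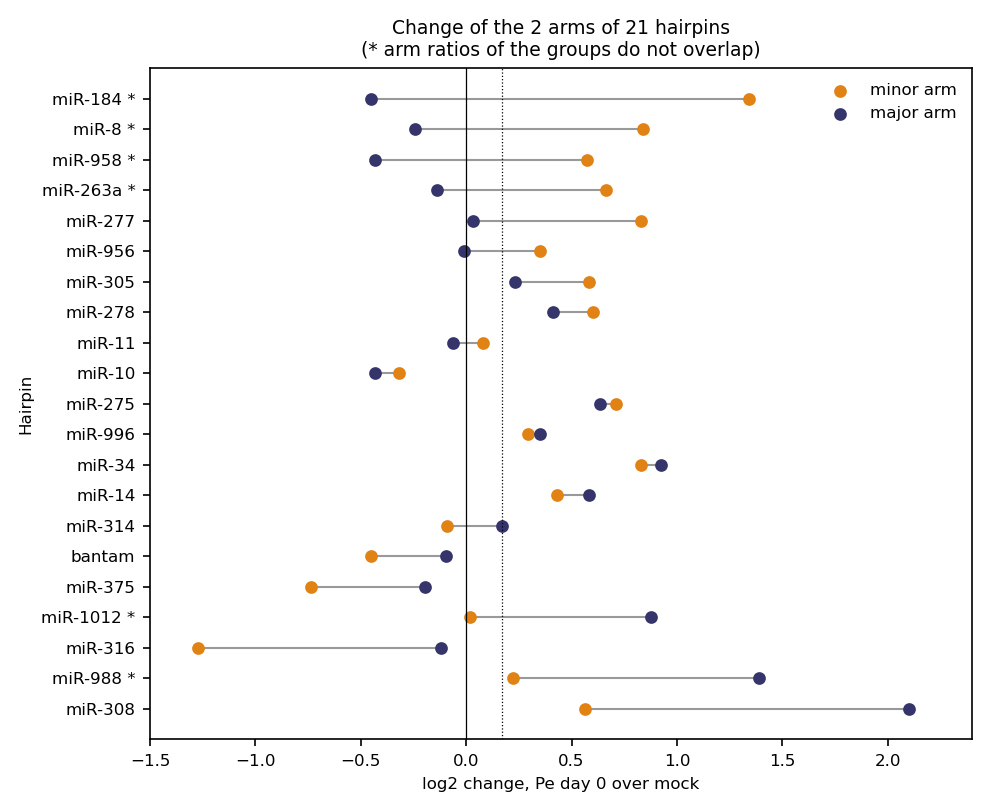
Log2 change (Pe day 0 over mock) of the more and the less abundant arm of 21 hairpins, joined by a line, with the hairpins ordered by the difference. The dotted line marks the median of all at 0.17 and stars mark the 6 hairpins whose arm ratios did not overlap between groups. The arms of miR-8, miR-958 and miR-184 lie on opposite sides of 0, and those of miR-34 and miR-275 lie together above it.

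By hairpin family, the cluster of miR-277, miR-34 and miR-317 gave the 1 higher call found in a cluster or family. It lies on chromosome 3R, plus strand, with miR-317 at 10091126 to 10091217, miR-277 at 10100022 to 10100121 and miR-34 at 10100936 to 10101034 (Ensembl BDGP6), the last 2 in exons of the same non-coding RNA gene. Of its 5 tested arms 1 was called, beside 3 of 73 or 4.11% of all, and 4 lay above the median of all, with a cluster median of 0.83. miR-317-3p, known in flies as a regulator of the Toll immune response, had 3133, 3020 and 5058 scaled RPM at Pe day 0, against 1399, 2587 and 2211 in mock midguts. Its groups did not overlap, save with RPM as deposited, and its log2 change was 0.86 ± 0.31 (SE, limma adjusted p = 0.1). miR-34-5p had 2495, 2722 and 1361 scaled RPM at Pe day 0, against 868, 1603 and 969 in mock midguts. Its Pe replicate 3 fell below mock replicate 2, and its log2 change was 0.92 ± 0.33 (SE, limma adjusted p = 0.1). Without 1 of the 6 libraries the log2 change was 0.74 to 1.23. The limma adjusted p was 0.25, 0.047 and 0.31 without mock replicates 1, 2 and 3. It was 0.22, 0.15 and 0.00023 without Pe replicates 1, 2 and 3.

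miR-277, known in flies for its control of branched-chain amino acid breakdown, gave the exception in this cluster. miR-277-3p, its major arm, had 649, 782 and 651 scaled RPM at Pe day 0, against 609, 741 and 687 in mock midguts. The groups overlapped almost wholly, with a log2 change of 0.03 ± 0.22 (SE) that was -0.16 with median-of-ratios scaling. The minor arm, miR-277-5p, had 64.4, 82.3 and 40.8 scaled RPM at Pe day 0, against 47.2, 27.5 and 25.3 in mock midguts, a log2 change of 0.83 ± 0.39 (SE, limma adjusted p = 0.16).

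The hairpins of miR-275 and miR-305 lie next to each other on chromosome 2L, plus strand, at 7425795 to 7425892 and 7425972 to 7426044 (Ensembl BDGP6). miR-305 is known in flies for its role in midgut stem cells, and miR-275 is known in mosquitoes for its role in blood digestion. None of their 4 arms was called and all 4 lay above the median of all, with a median of 0.61. miR-275-5p had 391.97, 326 and 285 scaled RPM at Pe day 0, against 224, 155 and 232 in mock midguts, and a log2 change of 0.71 ± 0.27 (SE, limma adjusted p = 0.1). miR-275-3p had 276.1, 384 and 332 scaled RPM at Pe day 0, against 206, 205 and 217 in mock midguts. The mock values of the 3p arm were nearly equal and all Pe values were above them. miR-305-5p, the minor arm, also separated, with 338, 302 and 276.4 scaled RPM at Pe day 0, against 206, 260 and 154 in mock midguts. The major arm miR-305-3p, at 4548, 3044 and 3119 scaled RPM at Pe day 0 and 3793, 2590 and 2725 in mock midguts, did not.

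The 3 tested miRNAs of the miR-281 copies had changes below 0, and 1 of them fell. miR-281-1-5p had 77.2, 37.7 and 82.3 scaled RPM at Pe day 0, against 130, 97.7 and 114 in mock midguts, again with Pe replicate 2 lowest. These levels rest on 54, 11 and 109 reads at Pe day 0 and on 69, 39 and 54 reads in mock midguts. The log2 change of miR-281-1-5p was -0.82 ± 0.33 (SE, limma adjusted p = 0.12). That of the scarce miR-281-3p, whose groups overlapped, was -0.42 ± 0.46 (SE). The copies have like sequences, so the split of reads between the 2 5p names is uncertain.

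The miR-2 and miR-13 family, known in flies for repressing the cell death genes reaper, grim and hid, did not move as one. miR-13b-3p had 471, 675 and 529 scaled RPM at Pe day 0, against 289, 341 and 318 in mock midguts, well apart, with a log2 change of 0.80 ± 0.26 (SE, limma adjusted p = 0.061). The change of miR-2b-3p was -0.11 ± 0.24 (SE), that of miR-2b-2-5p 0.44 ± 0.39 (SE) and that of the merged miR-2a-3p/2c-3p 0.17 ± 0.29 (SE), or -0.02 with median-of-ratios scaling. miR-13b-3p can come from 2 hairpin copies, which its reads do not tell apart.

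miR-14, known in flies as a suppressor of cell death and a regulator of fat storage, had both arms apart between groups. miR-14-3p had 4592, 5207 and 4515 scaled RPM at Pe day 0, against 3444, 3641 and 2565 in mock midguts, a log2 change of 0.58 ± 0.21 (SE, limma adjusted p = 0.1). miR-14-5p had 549, 387 and 384 scaled RPM at Pe day 0, against 353, 346 and 270 in mock midguts, a log2 change of 0.43 ± 0.26 (SE). Only 1 of 22 alternatives called miR-14-3p, the model of the 6 libraries with the replicate block (adjusted p = 0.039), against an adjusted p of 0.059 without the block. With RPM as deposited its groups overlapped.

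The remaining clusters and families held no call. In the miR-9c cluster, within an intron of grp, the 3 tested 5p miRNAs (miR-9c, miR-9b and miR-306) lay above the median of all, from 0.20 to 0.78, with overlapping groups in each. The 2 tested members of the let-7 complex, let-7-5p and miR-125-5p, had changes of -0.04 ± 0.25 and -0.16 ± 0.31 (SE). miR-12-5p was at 0.30 ± 0.23 and its neighbour miR-283-5p at 0.01 ± 0.24 (SE). miR-276a-3p was at 0.02 ± 0.24 (SE). miR-996-5p and miR-996-3p were at 0.29 ± 0.37 and 0.35 ± 0.30 (SE), and miR-279-3p, from the neighbouring hairpin, at -0.07 ± 0.30 (SE), or 0.00 with RPM as deposited. Of these, miR-996-5p alone was free of overlap.

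**Figure D4:**
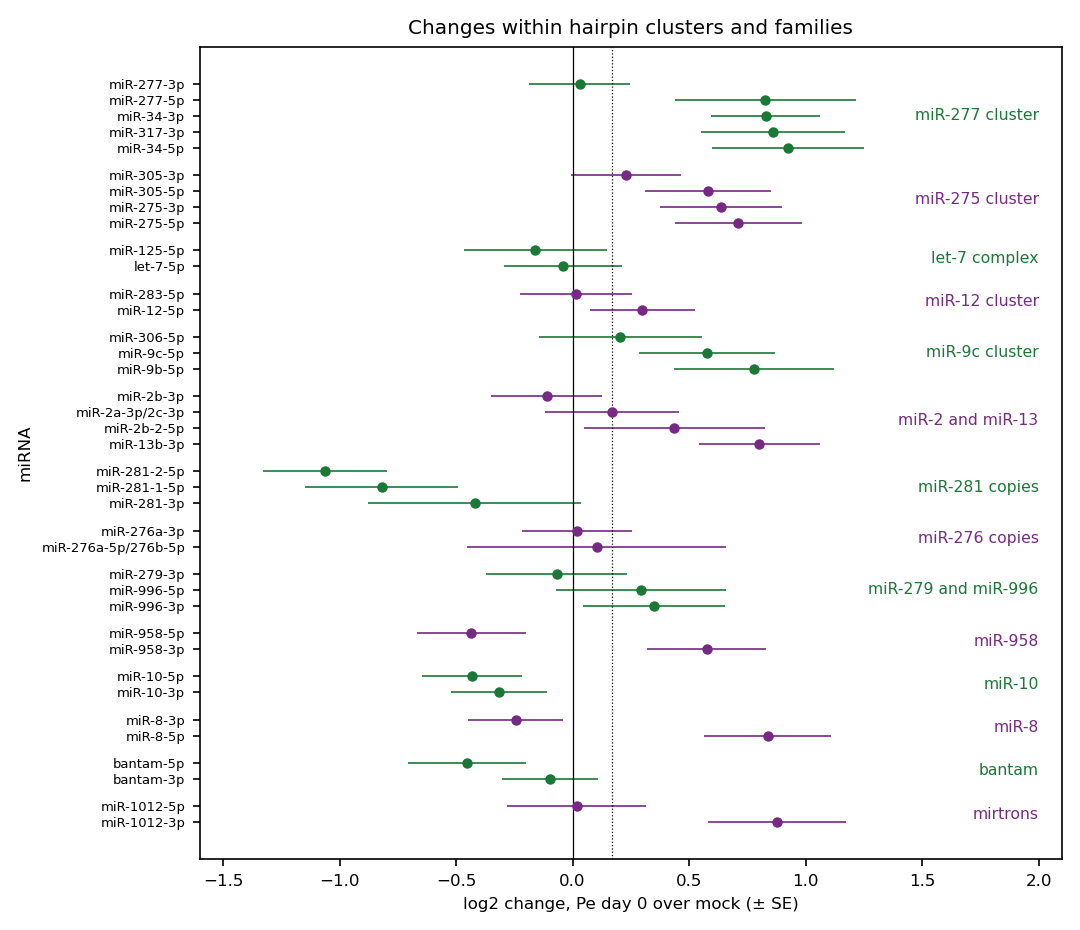
Log2 change (Pe day 0 over mock, bars ± SE) of the tested miRNAs of each cluster, family or hairpin with more than 1 tested member. The dotted line is the median of all at 0.17. The 4 arms of the miR-275 cluster and 4 of the 5 arms of the miR-277 cluster lie right of it, and the 3 of the miR-281 copies, from -0.42 to -1.06, lie left of 0.

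Grouped by known role, the lists held few calls. None of the 13 tested arms tied to the gut epithelium and its progenitors (miR-8, miR-305, miR-275, miR-263a, miR-31a, bantam and miR-277) was called, 6 were free of overlap and the median change was 0.23. In the metabolism list (miR-14, miR-278, miR-33, miR-305 and miR-277) 0 of 9 were called and 3 were free of overlap, with a median of 0.43. In the immunity list (let-7, miR-8, miR-958, miR-34, miR-317 and miR-277) 1 of 10, miR-34-3p, was called and 5 were free of overlap, with a median of 0.70. Of those 5, 3 lay above and 2 below, and the 10 changes ran from -0.43 to 0.92, with 3 below 0. The miR-277 cluster alone gave 5 of the 10. Over all 73 the median was 0.17, 4.11% were called and 32.9% were free of overlap. The lists share miR-8, miR-277 and miR-305.

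Another 65 miRNAs were listed in at least 1 of the 6 libraries without reaching the filter. They made up 0.0442% ± 0.0245 of reads at Pe day 0 and 0.0214% ± 0.0044 in mock midguts (SD, n = 3 each). Pe replicate 3, the deepest library, carries much of this, with 0.0723% of its reads, and 13 of the 65 were listed only there. Besides miR-989-3p, these low miRNAs included miR-31b-5p, with 9, 0 and 184 reads in the Pe replicates and 5 reads over the mock group. miR-312-3p had 88 reads in Pe replicate 3, 0 in the other Pe libraries and 3 over the mock group. Of the 73 tested miRNAs, 19 were highest in Pe replicate 3 and as many in Pe replicate 2. In Pe replicate 3, miR-9a-5p had 137 scaled RPM beside 13.7 to 62.2 in the other 5 libraries, and miR-92b-3p 466 beside 117 to 250. miR-2535b-3p was the 1 untested miRNA listed in all 3 Pe libraries and in no mock library, at 5, 2 and 5 reads, and no miRNA showed the opposite pattern.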

How the data were processed

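Small RNA libraries were made from total RNA extracted with TRIzol and a TruSeq small RNA kit, per the labels' protocols. The authors deposited RPM per miRNA, made with miRge by the name of the table. The aligner, genome build and miRNA release are not given in the sources used here. A second deposited table, of comparisons, has per miRNA a mean signal, log2 fold changes, a test score, p-values and adjusted p-values. It was made with DESeq2 1.22.0, per the submitters' processing notes. Its headers do not name the contrasts. The first set was matched by value to Pe day 0 over mock, differing by at most 0.033 over the 47 miRNAs with a deposited mean above 50.

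The RPM were whole multiples of the value of 1 read, within 4.5e-07 of a whole number, which gave the reads per library. Each library held too few low values to meet the rule set for a count test on such reads, so none was run. RPM were scaled by trimmed mean of M values (TMM) factors over all 9 libraries, trimming 30% of ratios and 5% of abundances. miRNAs with 20.1 RPM (10 reads at the median depth of 497997) in 3 libraries were kept, and held 99.96% of reads. limma 3.58.1 (R 4.3.3; trended, robust variances) tested log2(scaled RPM + 4.02), the pseudocount being 2 reads at the median depth. The model held group means and 6 residual degrees of freedom. Changes on this scale are understated for scarce miRNAs. Arm ratios were tested likewise, and the code was tested on simulated data. Same-numbered Pe and mock libraries deviated together (correlations of 0.24, 0.43 and 0.36), so the replicate number was used as a block in alternative models. The main model did not pair them. No library repeated another within sampling noise. PCR copies are not independent molecules, so no counting intervals are given.

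The miRNAs named were those called, those without overlap and a mean of at least 10 RPM, the 5 most abundant, their other arms and family members, and both arms of miR-958. The members and lists were chosen with earlier results of these data known. Hairpin positions come from the Ensembl BDGP6 annotation, which matched 45 of 52 hairpin names. Alternatives covered scaling, pseudocount, filter, model and leaving out each library.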

Additional observations from a re-analysis of the deposited data

How the results depend on the processing

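Relative to the 3 calls above, limma called 0 miRNAs with RPM as deposited (16 at an unadjusted p under 0.05), with no filter (22), with voom on the recovered reads (21) and without trended and robust variances (20). It called 7 with a filter of 100 RPM, 11 with only the 6 libraries, 1 with the replicate block in 9 libraries and 11 with the block in 6. With only the 6 libraries and scaling factors from those 6, a setting chosen after seeing the data, it called 1 higher and 2 lower. Leaving out 1 library gave 0 to 10 calls, with 0 when Pe day 0 replicate 2, or else replicate 2 of Pe day 3, was left out, 1 without mock replicate 1, 8 without Pe day 3 replicate 1 and 10 without Pe day 3 replicate 3. miR-10404-5p was called in 15 of the 21 settings that tested it, miR-281-2-5p in 13 of 22 and miR-34-3p in 10 of 22. Under the other scalings, a check of overlap added after seeing the data, 21 to 25 miRNAs were free of overlap, beside 24 with TMM over all 9 libraries. No sign of the 3 reversed. Called arm ratios numbered 4 with a pseudocount 5 times as large, 3 with the filter of 100 RPM, 6 with only the 6 libraries and 6 with the block in 6, and 0 to 4 without 1 library, with 4 without Pe day 3 replicate 3. The cause was not tested.

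Of 41 named miRNAs, 7 changed sign in at least 1 setting, none of them called. The changes with RPM as deposited were 0.0588 for miR-956-3p and 0.00041 for miR-279-3p. With median-of-ratios scaling they were -0.17 for miR-1012-5p, -0.16 for miR-277-3p and -0.0163 for miR-2a-3p/2c-3p. With the total without the 5 most abundant they were -0.10 for miR-1012-5p and -0.0863 for miR-277-3p. With only the 6 libraries and their own factors they were -0.15 for miR-1012-5p, -0.15 for miR-277-3p and -0.00597 for miR-2a-3p/2c-3p. Without 1 library the change ranged from -0.15 to 0.17 for miR-956-3p, -0.30 to 0.0297 for miR-263a-5p, -0.28 to 0.0393 for miR-31a-5p, -0.17 to 0.29 for miR-1012-5p, -0.0579 to 0.10 for miR-277-3p and -0.20 to 0.16 for miR-279-3p.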

Other observations

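Of the 52 hairpin names tested, 45 were placed in the annotation. The 23 tested miRNAs from hairpins in introns of protein-coding genes on the same strand had a median log2 change of 0.30 (Pe day 0 over mock), with 14 above the median of all 73. The 31 from non-coding RNA genes had a median of -0.01, with 12 above it, and the 8 outside other annotated genes a median of 0.20, with 5 above it. miRNAs of 1 hairpin share their source, and no test was made of these groups. Among the scarce miRNAs outside the filter, 28 were listed in a Pe library and in no mock library, and 5 the other way round. Of the 28, 13 were listed only in Pe replicate 3, the deepest library, and the part of depth in this was not tested.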
